A study of Mus musculus with 6 samples.

Results

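Integrins and laminins were followed in MLE-12 cells, a mouse lung epithelial line, as 35 gene names of the 34678 in the deposited expression table. The set holds 25 integrin subunits and 10 laminin chains and was defined by gene name, with earlier results of these data known. Itgam is listed under 2 gene identifiers, so the set fills 36 rows. MLE-12 is an immortalized line that was derived from a lung tumour of a mouse carrying the SV40 large T antigen under the human surfactant protein C promoter, and all 6 libraries come from it. The NR4A1 overexpression group had 3 libraries of cells transfected with pCMV-SPORT6 carrying the NR4A1 open reading frame, and the vector control group had 3 libraries of cells transfected with empty pCMV-SPORT6. For the sequenced cells, the time from transfection to RNA extraction is not given in the sources used here. Nothing in the labels says that the 3 libraries of a group came from separate cultures, so p-values measure the spread between these libraries, which may be technical.

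Integrins are cell surface receptors built from an alpha and a beta subunit. The pair decides which matrix protein is bound, and the short tail of the beta subunit links to the actin skeleton through talin and kindlin. Laminins are trimers of an alpha, a beta and a gamma chain and form the sheet on which epithelial cells sit, the basement membrane. In the lung, laminins with the Lama5 chain lie beneath airway and alveolar epithelium, and integrins of Itgb1 with Itga3 or Itga6, together with the pair Itga6 and Itgb4, are their main epithelial receptors. Integrins of Itgav bind matrix proteins with the RGD sequence, and Itgav with Itgb6 or Itgb8 activates latent TGF-β. Itga5 with Itgb1 is the classical fibronectin receptor. In bulk RNA, fewer cells of one type and less RNA per cell cannot be told apart.

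Each library held between 15019038 and 17574340 counted reads. Nr4a1 had 50660, 60093 and 68555 counts in the NR4A1 overexpression libraries and 428, 510 and 463 counts with vector alone, and reads of the plasmid and of the cells' own gene were not told apart. The second replicate of the NR4A1 overexpression group stood apart. Of 13390 gene rows, 350 (2.61%) exceeded all other libraries there at least 10-fold. The same held for 10 rows (0.0747%) in the first vector control, for 1 in the second and for 0 in the rest. Fold changes and counts that this library moves are given with and without it. Among 10 epithelial markers, Krt8, Krt19, Cdh1, Foxa2 and Nkx2-1 were counted at least 439 times in every library. Cldn3 had between 65 and 96 counts, whereas Cldn4 had at most 1, Cldn7 at most 11 and Epcam at most 22. Krt18 had 8, 164 and 14 counts with NR4A1 overexpression and 21, 8 and 2 with vector alone. Dcn, a matrix proteoglycan of fibroblasts, was counted between 14138 and 17269 times in all 6 libraries.

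Of the 36 rows, 35 had at least 1 count and 15 had a mean of at least 1 FPKM, the authors' read count scaled by gene length and library total. These 15 were 7 alpha integrins, 4 beta integrins and 4 laminins. The set took between 0.359% and 0.399% of all counts. Lama1, the alpha chain of the early embryonic basement membrane, had 0 counts in every library, which allows up to 3 counts, or between 0.170 and 0.203 CPM (counts scaled to an effective library total with TMM factors). These limits cover counting error only.

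Itgb1, the common beta subunit of the collagen, fibronectin and laminin receptors (ENSMUSG00000025809; chromosome 8 from 128685654 to 128733200, GRCm38), had the highest level of the set. It stood at 303, 277 and 280 FPKM in NR4A1 overexpression replicates 1, 2 and 3 and at 270, 263 and 263 FPKM in vector control replicates 1, 2 and 3. All 3 NR4A1 libraries were above all 3 controls, with means of 286 ± 14.1 and 266 ± 3.96 FPKM (SD, n = 3 each). Itgb5, the partner of Itgav in a vitronectin receptor (chromosome 16 from 33829665 to 33949153), followed with 52.3, 65.0 and 67.4 FPKM against 62.9, 67.2 and 69.8 FPKM, and its groups overlapped. Together, Itgb1 with between 78.2% and 84.3% and Itgb5 with between 14.6% and 20.8% made up nearly all of the summed FPKM of the 8 beta subunits. Itgb8 had a mean of 1.41 FPKM, Itgb4 of 1.17 FPKM and Itgb3 of 0.874 FPKM over the 6 libraries. The leukocyte subunits Itgb2 and Itgb7 and the epithelial subunit Itgb6 had at most 8, 19 and 4 counts in a library and were not tested.

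Of the alpha subunits, Itga3, the epithelial laminin receptor subunit (chromosome 11 from 95044474 to 95076801), led with 33.4, 36.1 and 36.1 FPKM in the NR4A1 overexpression libraries and 38.0, 36.7 and 39.9 FPKM in the vector controls. The NR4A1 libraries lay below the controls in FPKM, by little, and overlapped them after TMM scaling. Itgav, on chromosome 2 from 83724397 to 83806916, was at 10.9, 8.85 and 8.84 FPKM against 9.12, 5.22 and 8.77 FPKM, with vector control replicate 2 below the other 5 libraries. Itga5, on chromosome 15 from 103344289 to 103366763, was at 4.61, 23.2 and 5.17 FPKM against 5.95, 5.61 and 5.85 FPKM, so that replicate 2 of the NR4A1 group was far above the rest and the other NR4A1 libraries were below every control. Itga9, a receptor subunit for tenascin and other matrix proteins, had a mean of 4.91 FPKM. The collagen receptor subunit Itga1 had 2.33 FPKM, the platelet subunit Itga2b 1.69 FPKM and the laminin receptor subunit Itga7 1.41 FPKM as mean over the 6 libraries. Itga2b was at 1.42, 1.72 and 1.72 FPKM against 1.58, 2.09 and 1.61 FPKM. Of the 4 platelet markers, Gp9 and Ppbp had 0 counts in every library and Pf4 had at most 3. Gp1bb had 5, 4 and 53 counts with NR4A1 overexpression and 29, 3 and 3 with vector alone. The source of the Itga2b reads was not tested.

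Itga6, the alpha subunit that pairs with Itgb4 in hemidesmosomes, was low, with 0.0487, 0.465 and 0.108 FPKM against 0.0849, 0.0490 and 0.0786 FPKM. That is 9, 97 and 23 counts in the NR4A1 overexpression libraries and 18, 10 and 17 in the vector controls. The NR4A1 replicate 2 value was the only one above 23 counts. Itga10, a collagen receptor subunit of cartilage, had between 14 and 29 counts, and 33.5% of its exon bases are shared with the same-strand gene Gm42957, so its level is uncertain. The leukocyte subunits Itgal, Itgam, Itgax and Itgae had at most 3, 5, 1 and 14 counts in a library. Itga4, Itga2, Itga8 and Itga11 had at most 30, 15, 12 and 2 counts.

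**Figure D1:**
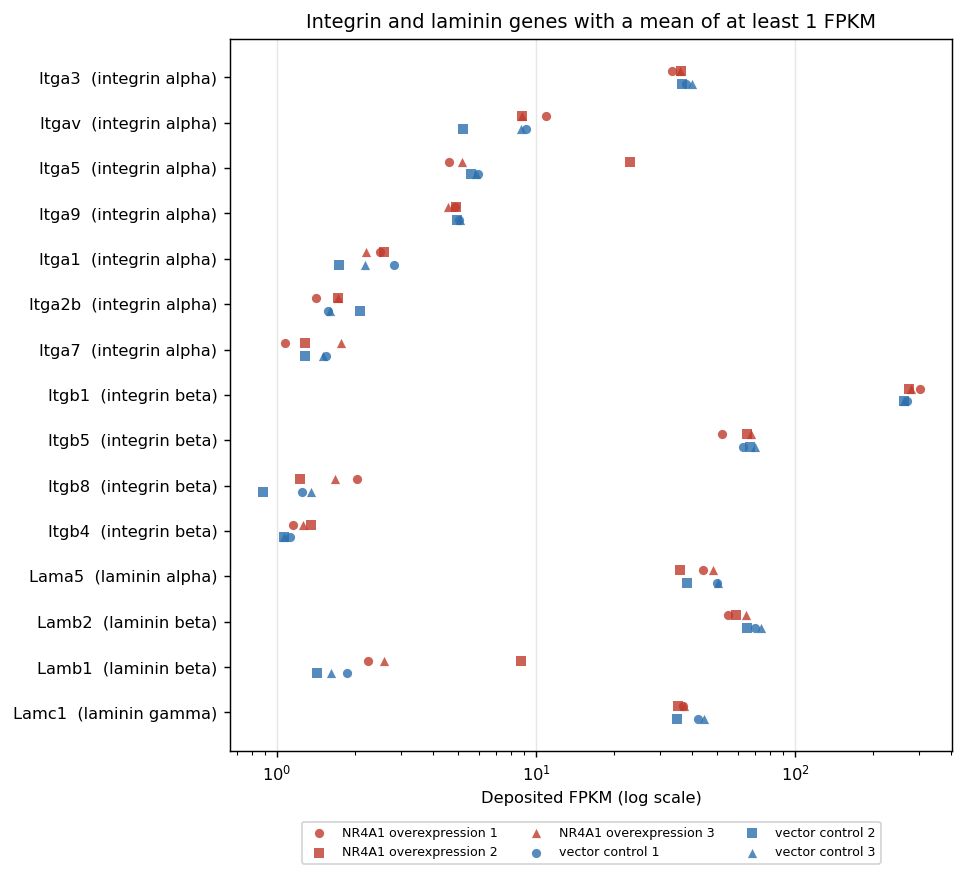
Deposited FPKM (log axis) of the 15 genes of the set with a mean of at least 1 FPKM, 1 point per library, circles, squares and triangles being replicates 1, 2 and 3, with red for NR4A1 overexpression and blue for vector control. Itgb1 lies highest, and for Itga5 and Lamb1 the red square, NR4A1 overexpression replicate 2, lies far to the right of the other 5 libraries.

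Among laminins, 1 chain of each kind dominated. Lama5 (chromosome 2 from 180176373 to 180225859) was at 44.1, 36.1 and 48.2 FPKM in the NR4A1 overexpression libraries and 50.05, 38.3 and 50.4 FPKM in the vector controls. Its groups overlapped, and each group had its lowest value in replicate 2. Lamb2, a beta chain of mature basement membranes (chromosome 9 from 108479736 to 108490530), was at 55.3, 58.9 and 64.7 FPKM against 70.2, 65.1 and 73.8 FPKM, so that every NR4A1 value was below every control on this scale. Lamc1, the common gamma chain (chromosome 1 from 153218922 to 153332786), was at 36.8, 35.3 and 37.3 FPKM against 42.0, 35.1 and 44.7 FPKM. In the 5 libraries other than NR4A1 overexpression replicate 2, Lama5 held between 99.3% and 99.98% of the summed FPKM of the 5 alpha chains listed here, and Lamb2 between 96.0% and 97.8% of that of the 3 beta chains. In NR4A1 overexpression replicate 2, these shares were 89.8% and 87.0%. The chains of the anchoring laminin of skin and airway hemidesmosomes in the set were near the floor, Lama3 with between 2 and 18 counts and Lamb3 with between 2 and 10 counts. Lamc3, a rare gamma chain, had at most 4 counts.

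**Figure D2:**
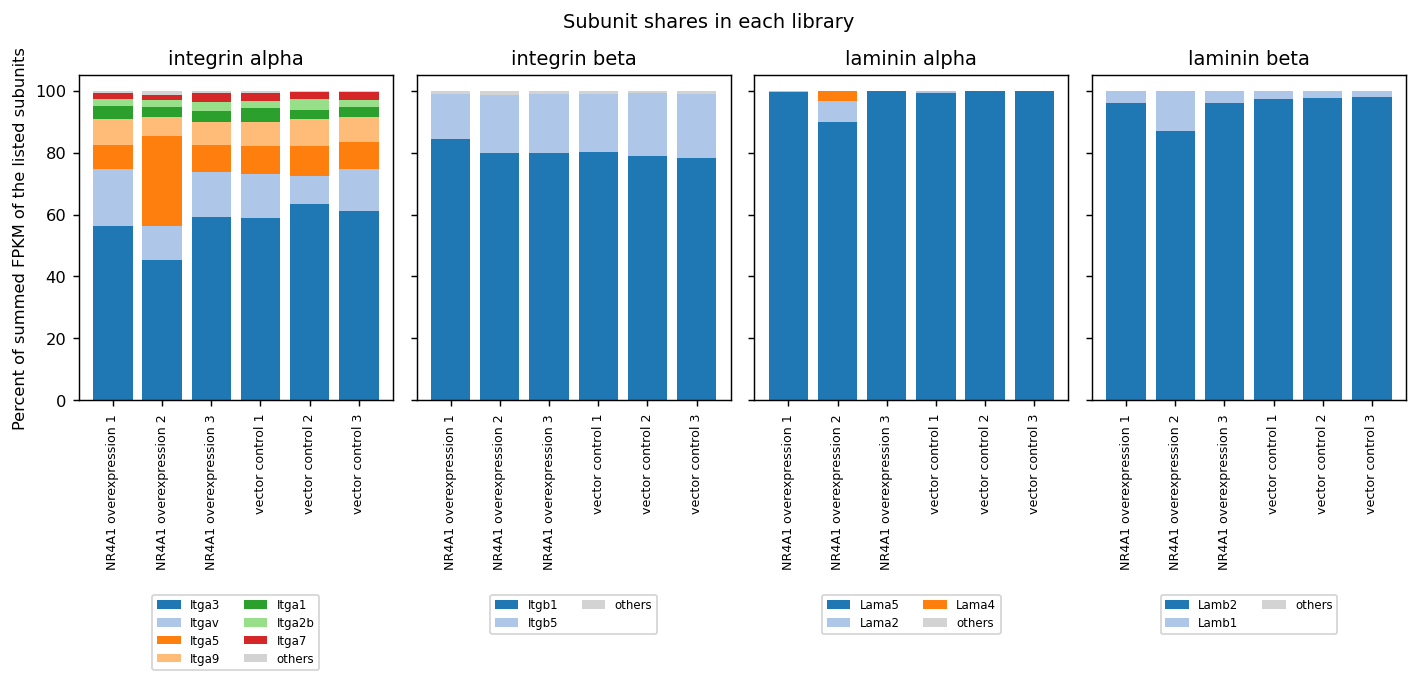
Share of each subunit in the summed FPKM of the listed subunits of its kind (percent, bars from 0), 1 bar per library. Itga3, Itgb1, Lama5 and Lamb2 take the largest shares in all 6 libraries, and NR4A1 overexpression replicate 2 differs by its shares of Itga5 (29.0%), Lama2 (6.67%), Lama4 (3.26%) and Lamb1 (12.9%).

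The main comparison asked whether NR4A1 overexpression changed these genes. None of the 21 tested rows of the set passed the threshold, which asked edgeR's quasi-likelihood test for an adjusted p under 0.05 and the fitted fold for 2 or more, while 22 of all 12941 tested genes (0.170%) did. DESeq2 called 0 of the 19 for which it gave an adjusted p, which left out Lama2 and Lama4, and limma called 0 of the 15 at or above its limit of 1 FPKM and 0 of all 21 without that limit. At an unadjusted p under 0.05, 3 of the 21 were found, against 6.46% of all tested genes. Lamb1 and Lama3 had higher values with NR4A1 (4.02% of all tested genes) and Lamb2 lower values (2.44% of all tested genes). In CPM the groups did not overlap for 4 of the 21, all higher with NR4A1 (Itgb1, Itgb4, Lama3 and Lamb1), and for 0 lower, against 12.9% of all tested genes, 6.69% higher and 6.22% lower. Without NR4A1 overexpression replicate 2 they did not overlap for 5 higher, the same 4 and Itgb8, and for 2 lower, Itga3 and Itga5, against 13.8% of the genes in each direction. The median log2 fold change of the set was 0.23, beside 0.01 over all tested genes, and was -0.03 beside 0.00 without NR4A1 overexpression replicate 2. Of the 21, 13 had a positive and 8 a negative log2 fold change, and without that library 11 of 22 were positive and 11 negative. The filter on low counts took out the other 15 rows, which therefore have no p-value. Of these, Lamb3 and Lamc3 were lower and Itgb6 higher with NR4A1, also without overlap. Lama3 reached 10 counts in all 3 NR4A1 libraries but, of the controls, only in replicate 2. It thus passed the filter mainly through the group where it was high. The counts of higher and lower members depend in part on this filter.

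For the abundant subunits the 95% intervals were narrow. The log2 fold change of Itgb1 was 0.13 (standard error 0.0755, edgeR adjusted p = 0.839), a fold between 0.968 and 1.24. That of Itgb5 was -0.09 (standard error 0.106), with a fold between 0.789 and 1.11. Itga3 had a log2 fold change of -0.10 (standard error 0.0708) and a fold between 0.833 and 1.05. A 2-fold change in either direction lay outside the interval for these 3 genes, and so it did for Lama5 (fold between 0.738 and 1.19), Lamc1 (0.771 to 1.08), Itga9 (0.856 to 1.09) and Itgav (0.884 to 1.78). Itgb4, the hemidesmosome subunit, was at 10.9, 12.7 and 11.8 CPM against 10.48, 9.79 and 9.86 CPM, without overlap, and its log2 fold change was 0.23 (standard error 0.122, edgeR adjusted p = 0.829).

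Lamb2 was at 419, 444 and 484 CPM with NR4A1 overexpression and 523, 481 and 549 CPM in the vector controls. Only NR4A1 replicate 3 reached the range of the controls. The fitted log2 difference was -0.20 (standard error 0.0869, edgeR adjusted p = 0.772), and the fit without NR4A1 overexpression replicate 2 also gave -0.20 (edgeR adjusted p = 0.621). Itgb8, named after its values were seen, was at 28.3, 16.9 and 22.9 CPM against 17.0, 11.9 and 18.4 CPM, so that NR4A1 replicate 2 lay within the range of the controls and the other NR4A1 libraries above it. The log2 fold change was 0.52 (standard error 0.227, edgeR adjusted p = 0.781) with all libraries and 0.70 (standard error 0.195, edgeR adjusted p = 0.420) without NR4A1 replicate 2.

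**Figure D3:**
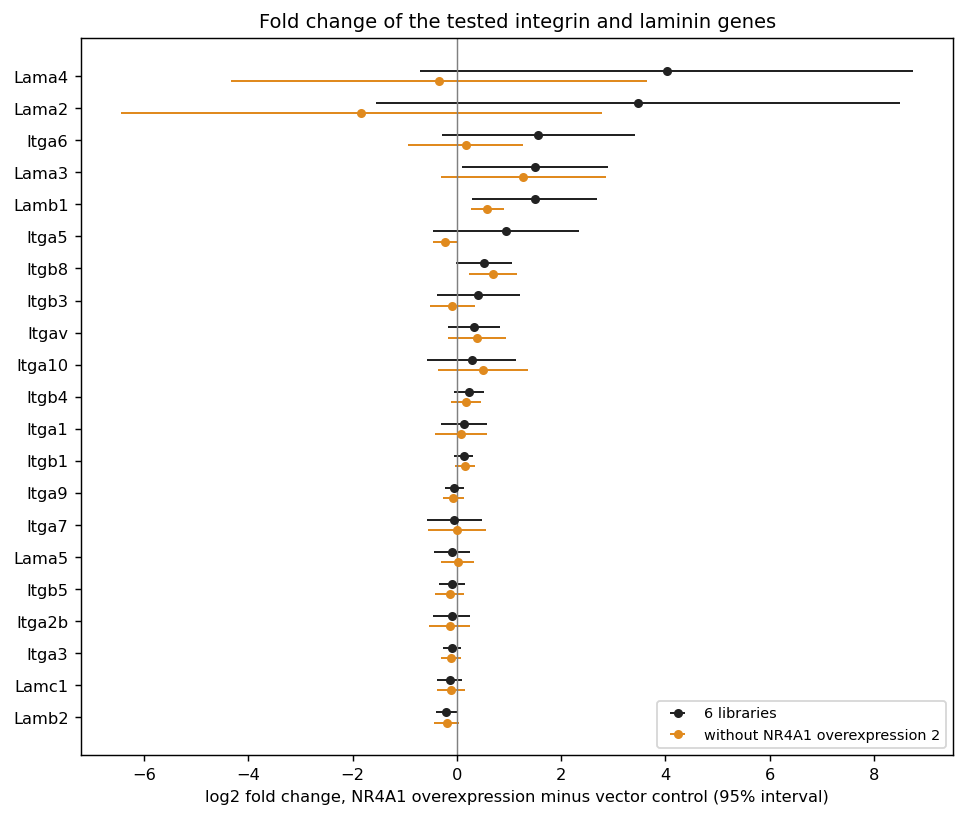
Log2 fold change (NR4A1 overexpression minus vector control) of the 21 tested rows of the set with 95% intervals from edgeR's quasi-likelihood fit, with all 6 libraries (black) and without NR4A1 overexpression replicate 2 (orange). Lamb1 and Itgb8 have orange intervals above 0, and Lama2, Lama4, Itga5, Itgb3, Lama5 and Itga7 change sign when that library is left out.

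Lamb1, the beta chain of the laminins of developing and regenerating basement membranes (ENSMUSG00000002900), is the member with RT-qPCR primers among the study's methods. The study also lists Lamb1 among its genes changed by NR4A1 overexpression, in the PI3K-Akt and small cell lung cancer pathways. It called genes at 2-fold or more with p under 0.05, with no adjustment stated. Its text gives no RT-qPCR result for Lamb1. The gene lies on chromosome 12 from 31265234 to 31329644. Its primer sites are shown because they place that assay on the gene. They were found by exact match to GENCODE M21 transcripts (GRCm38), are given here as the transcript reads, 5′ to 3′, and lie on the plus strand in exons 1 and 2 of ENSMUST00000002979.14, within its coding sequence. The forward site covers positions 31265479 to 31265501, and the reverse site runs from 31265589 to 31265601 and on from 31266691 to 31266698. Capitals mark the bases in exon 2.
forward primer site: gaaaggaagacccgaagaaaaga
reverse primer site: tttggtgtcctagCCCTATGG
The product is 131 bp and crosses the first intron of that transcript. In ENSMUST00000169088.7, the forward site lies outside the coding sequence.

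Sequencing gave 432, 1891 and 571 counts of Lamb1 with NR4A1 overexpression and 410, 301 and 361 counts with vector alone. After scaling these were 29.2, 113 and 33.0 CPM against 23.7, 17.96 and 20.4 CPM. All NR4A1 libraries lay above all controls, and replicate 2 exceeded the mean of NR4A1 replicates 1 and 3 by a factor of 3.62. The log2 fold change was 1.49 (standard error 0.510, edgeR adjusted p = 0.665, unadjusted p = 0.0216 from the same test). Without NR4A1 overexpression replicate 2 it was smaller and less variable, 0.59 (standard error 0.137, edgeR adjusted p = 0.286, unadjusted p = 0.00348 from the same test). The share of Lamb1 in the summed FPKM of the beta chains was 3.92%, 12.9% and 3.84% with NR4A1 overexpression and 2.59%, 2.14% and 2.13% in the controls. Without that replicate, 0 of 22 tested rows passed the threshold, against 0.214% of all genes, and at an unadjusted p under 0.05 there were 2, Lamb1 and Itgb8, against 8.19% of all genes.

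Lama3, the epithelial alpha chain, lies on chromosome 18 from 12333819 to 12583013. Its counts were 10, 18 and 13 with NR4A1 overexpression and 3, 10 and 2 with vector alone. Scaled to 0.676, 1.07 and 0.751 CPM against 0.174, 0.597 and 0.113 CPM, the groups did not overlap. Its log2 fold change was 1.49 (standard error 0.594, edgeR adjusted p = 0.735), and without NR4A1 overexpression replicate 2 it was 1.27 (standard error 0.673). Lamb3 went the other way, with 4, 4 and 2 counts against 9, 10 and 6, and was too low to be tested.

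Several members were highest in NR4A1 overexpression replicate 2. Of the 23 rows with at least 1 CPM in a library, 7 were there at least 2-fold above every other library. They were Itga4, Itga5, Itga6, Itgb7, Lama2, Lama4 and Lamb1, against 5.90% of all rows at that level and 0 of the 23 in each other library. Itga4 and Itgb7 reached 1 CPM only in NR4A1 replicate 2, so they were among the 23 only through that library. Lama2, the alpha chain of muscle and nerve basement membranes (chromosome 10 from 26980036 to 27619758), had 13, 827 and 0 counts in NR4A1 overexpression replicates 1, 2 and 3 and 78, 0 and 0 counts in vector control replicates 1, 2 and 3. Lama4, the alpha chain of vessel and mesenchymal basement membranes (chromosome 10 from 38965515 to 39110188), had 10, 327 and 0 counts against 21, 0 and 0 counts. Both had their second highest count in vector control replicate 1 and the next in NR4A1 replicate 1. Their log2 fold changes of 3.47 (standard error 2.14) and 4.03 (standard error 2.01) had edgeR adjusted p-values of 0.848 and 0.822, and became -1.83 and -0.34 without NR4A1 overexpression replicate 2. Itga5 was counted 303, 1717 and 393 times against 449, 407 and 450 times, and its log2 fold change of 0.94 (standard error 0.594, edgeR adjusted p = 0.853) became -0.23 (standard error 0.102, edgeR adjusted p = 0.608) without that library. For Itga6 the values were 1.57 (standard error 0.784) and 0.17 (standard error 0.468), and for Itgb3 0.41 (standard error 0.339) and -0.09 (standard error 0.182).

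Markers of other cell types were highest in the same library. The 10 fibroblast markers summed to 979, 1737 and 946 CPM in the NR4A1 overexpression libraries and to 1033, 1043 and 919 CPM in the vector controls, and 8 of 10 were highest in NR4A1 replicate 2. The exceptions were Dcn, which made up most of the sum elsewhere, and Lum, with 63, 49 and 50 against 70, 48 and 75 counts. Without Dcn, a choice made after its values were seen, the 9 other markers had 342, 14413 and 202 counts against 1258, 217 and 257. Without Dcn the 3 highest libraries had the order they have for Lama2 and Lama4, which was not so in the sum of all 10, where vector control replicate 2 came second. The summed level of the 8 smooth muscle markers was 368 CPM in NR4A1 overexpression replicate 2 and between 2.10 and 7.52 CPM in the others, with 8 of 8 highest there. The sum of the 9 endothelial markers was 120 CPM there and between 7.82 and 9.71 CPM in the others, with 8 of 9 highest there. In the other 5 libraries Cdh5, Tie1, Kdr, Erg and Cldn5 were at 0 counts and Emcn at no more than 1, whereas Pecam1 had between 5 and 14 and Vwf between 11 and 40 counts, against 633 and 254 in NR4A1 replicate 2. Tek was the exception, with 89 counts there and between 102 and 127 in the others. The 9 immune markers summed to 5.54 CPM there and to between 2.14 and 3.40 CPM elsewhere, with 4 of 9 highest there. Laptm5 and Tyrobp were at 0 counts in all 6 libraries and Ptprc had at most 1, Csf1r had 21 counts there and at most 4 elsewhere, Lyz2 had 20 there and 12 in vector control replicate 1, and Cd68 had between 27 and 53 in every library. The 4 platelet markers summed to between 0.170 and 3.06 CPM. The 10 epithelial markers summed to 846 CPM there, within the range of 736 to 977 CPM of the other libraries, with 2 of 10 highest there. Krt18 was 1 of these 2, with 164 counts there and at most 21 elsewhere. Krt19 and Krt8 made up most of the epithelial sum. The part of these cell types in the values of Lama2, Lama4, Itga5, Itga6 and Lamb1 was not tested.

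**Figure D4:**
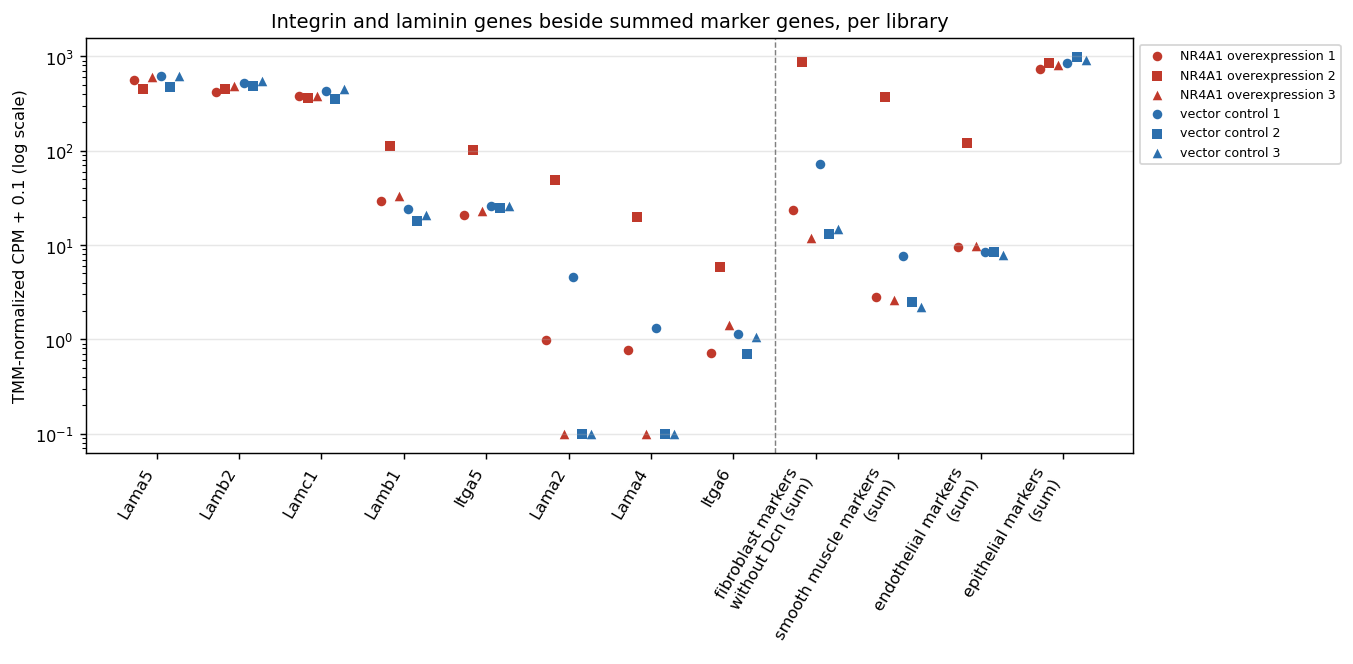
Level of 8 genes of the set and, right of the dashed line, summed level of marker genes in each library, as TMM-normalized CPM + 0.1 on a log axis, with red for NR4A1 overexpression and blue for vector control. The red square, NR4A1 overexpression replicate 2, is the highest point for Lamb1, Itga5, Lama2, Lama4 and Itga6 and for the fibroblast (without Dcn), smooth muscle and endothelial sums, and not for Lama5, Lamb2, Lamc1 or the epithelial sum.

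The partners of these receptors were read from a list of 61 gene names for the adhesion machinery, the basement membrane and other laminin receptors. Of its 53 tested rows, 0 passed the threshold in edgeR's test. DESeq2 and limma called 0 of the 50 to which each gave an adjusted p. At an unadjusted p under 0.05 there were 3 of 53, near the 6.46% of all tested genes, all with higher values in the NR4A1 group (4.02% of all tested genes). Without NR4A1 overexpression replicate 2 there were 0 higher and 2 lower, Zyx and Npnt. The list's median log2 fold change was 0.04, and -0.02 without that library. The 3 were Nid2, Tnc and Thbs1, all matrix proteins. Nid2, a nidogen that ties laminin to type IV collagen, had a log2 fold change of 0.38 (standard error 0.131, edgeR adjusted p = 0.665) and of 0.26 without NR4A1 overexpression replicate 2. Tnc, an integrin ligand of remodelling tissue, had 2.02 (standard error 0.772, edgeR adjusted p = 0.723) and Thbs1, a secreted matrix glycoprotein, 1.97 (standard error 0.822, edgeR adjusted p = 0.761) as log2 fold change, which became 0.46 and 0.19 without that library. Nid1, the nidogen that binds Lamc1 and named here after its values were seen, was counted 40, 7267 and 11 times against 269, 7 and 7 times. Its 3 highest counts lay in the same libraries as those of Lama2.

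Of the most abundant genes of the list, Rpsa, a ribosomal protein also described as a laminin receptor, was at 1594 ± 189.9 FPKM against 1657 ± 162.6 FPKM, Vcl, which links talin to actin, at 102 ± 3.62 against 104 ± 9.16 FPKM, and Col4a1, a type IV collagen chain, at 102 ± 35.0 against 75.5 ± 6.62 FPKM (NR4A1 overexpression and vector control, SD, n = 3 each). For Rpsa and Vcl the difference was smaller than the spread between replicates. For Col4a1 the groups did not overlap in CPM, with or without NR4A1 overexpression replicate 2. Its log2 fold change was 0.45 (standard error 0.223, edgeR adjusted p = 0.816) and was 0.13 without NR4A1 overexpression replicate 2.

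NR4A1 can bind DNA as a monomer at the motif AAAGGTCA. The RefSeq table of promoters (GRCm38.p6, from 250 bases before to 50 bases after each start site) held 26 windows for 23 of the 35 members. None of the 26 held this motif on either strand, against 495 of all 32851 windows (1.51%).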

How the data were processed

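RNA from 6 MLE-12 libraries, 3 with NR4A1 overexpression and 3 vector controls by the treatment labels, was sequenced as strand-specific libraries. The authors deposited 1 table that gives each gene a read count and an FPKM for each library. The submitters' processing notes name HISAT2 2.0.4 and GRCm38.p4, and the counting program, annotation and filters are not given in the sources used here. All 36 member rows are in GENCODE M21, 29 of them with identical coordinates. Over genes with at least 50 counts in every library the deposited FPKM scaled with the library's total count to within 5.35e-06%.

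Counts were analysed with edgeR 4.0.16 in R 4.3.3, using TMM factors, filterByExpr and the quasi-likelihood test across all 12941 remaining genes, with Benjamini-Hochberg adjustment. Genes were called at an adjusted p under 0.05 and at least 2-fold. Standard errors and 95% intervals were derived from the F statistic. Same-group libraries differed by more than counting noise (chi-square per degree of freedom between 9.73 and 42.7). This does not show that they came from separate cultures, and all were used. DESeq2 1.42.0, limma 3.58.1 on log2(FPKM + 1) and log2(FPKM + 0.1), other scalings and filters, a replicate block and the omission of each library were alternatives, and the omission of 2 libraries together was added after the data had been seen. The methods were tested on simulated counts with set fold changes. No simulated library was made to stand apart, so this does not test how they handle NR4A1 overexpression replicate 2. Promoters and primer sites were searched with Python 3.11.15.

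The members, the lists and the threshold were chosen with earlier results of these data known. Values per library are given for members with a mean of at least 5 FPKM, with groups that did not overlap and at least 10 counts in a library, at least 10-fold above all other libraries in 1 library with at least 1 CPM, or with an unadjusted p under 0.05, and for Lamb1. Itga2b, Itga6 and Itgb8 met none of these rules and are given in addition. Of the other list, those past the threshold or the 3 with the smallest p and the 3 most abundant are named, with Nid1, Zyx and Npnt in addition.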

Additional observations from a re-analysis of the deposited data

How the results depend on the processing

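For the integrin and laminin set, the count past the threshold stayed at 0 in both directions under all alternatives except an unadjusted p with at least a 2-fold change, which gave 2 with higher values, Lamb1 and Lama3. The adhesion and basement membrane list also gave 2 there and 0 otherwise. Over all genes, that setting gave 144 higher and 17 lower, beside 22 and 0 in the main fit. DESeq2 gave 71 and 2, and the omission of both NR4A1 overexpression replicate 2 and vector control replicate 1 gave 43 and 4. No fold threshold gave 30 higher and 1 lower, and no filter on low counts gave 17 higher. A mean of at least 10 counts gave 8 higher and the replicate block 5 higher. With limma there were 7 and 10 higher with a pseudocount of 1 and 0.1, and 6 without a filter. Leaving out each library in turn gave between 3 and 25 higher and between 0 and 3 lower. The replicate numbers were not taken as pairs, since same-numbered libraries deviated from their group means with correlations of -0.011, -0.046 and 0.246, and the block changed no call of the set.

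Of 321 fold changes of the 21 tested members under alternatives, 306 kept their direction. The other 15 belong to 9 genes. Leaving out each library in turn, the log2 fold change ran from -0.23 to 1.31 for Itga5, from -0.086 to 0.65 for Itgb3, from -1.83 to 11.12 for Lama2, from -0.34 to 9.81 for Lama4 and from -0.21 to 0.017 for Lama5, each with its reversal in the absence of NR4A1 overexpression replicate 2. The upper values of Lama2 and Lama4 come from the fit without vector control replicate 1, where the remaining controls are at 0 counts, and depend on the prior count. It ran from -0.27 to 0.094 for Itga7, which turned positive without NR4A1 overexpression replicate 1 or 2 or vector control replicate 1, from -0.026 to 0.33 for Itga1 and from -0.16 to 0.042 for Itga2b, which turned without vector control replicate 2, and from -0.17 to 0.0063 for Itgb5, which turned without NR4A1 overexpression replicate 1. With both NR4A1 overexpression replicate 2 and vector control replicate 1 left out, it was -0.20 for Itga5, -0.029 for Itgb3, 0.080 for Lama5 and 0.061 for Itga7. The cause was not tested. Over the alternatives, the adjusted p of Lamb1 lay between 0.133 and 0.996, the former being the lowest of any member. The 0.133 came from the fit without NR4A1 overexpression replicate 2 and vector control replicate 1, added after the data had been seen. The 15 members that the filter removed were not tested, among them Itga4 with between 4 and 30 counts. Lama2 and Lama4 passed it through the libraries in which they are high, and Lama3 mainly through the NR4A1 libraries.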
